A study of Rattus norvegicus with 18 samples.

Results

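The genes described here are 10 chemokine ligands of the CXC family, Cxcl1, Cxcl2, Cxcl3, Cxcl9, Cxcl10, Cxcl11, Cxcl12, Cxcl13, Cxcl14 and Cxcl16, measured by RNA sequencing in primary rat glia that met amyloid-β fibrils. They were chosen by gene symbol, and 10 of 10 symbols were found among the 16704 gene symbols that the astrocyte and microglia tables share. Wild-type (WT) astrocytes and microglia were grown from the brains of Sprague-Dawley pups at postnatal day 2 and were left untreated (control) or given pre-formed fibrils of the 42-residue peptide (Aβ42) or the 40-residue peptide (Aβ40) at 25 µM for 24 h, with 3 libraries in each of the 6 groups and 18 in all. Control cultures were untreated rather than given monomeric peptide or another particle, and all groups were held in serum-free medium before treatment. The microglia were shaken off mixed glial cultures and the astrocytes were what stayed attached after further shaking, so each culture is an enriched and not a sorted population.

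CXC chemokines are small secreted proteins that bind G protein-coupled receptors and draw leukocytes along a gradient. Ligands with an ELR motif before the first cysteines, here Cxcl1, Cxcl2 and Cxcl3, act on Cxcr2 and call neutrophils, and their genes are classical targets of NF-κB. Cxcl9, Cxcl10 and Cxcl11 are interferon-induced ligands of Cxcr3 and call activated T cells. Cxcl12 is a homeostatic ligand of Cxcr4 and Ackr3 that astrocytes and endothelium make in the brain, Cxcl13 calls B cells through Cxcr5, Cxcl16 is a membrane-bound ligand of Cxcr6 that proteases can shed, and Cxcl14 is expressed in many resting tissues.

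Counts assigned to genes ran from 3674043 to 19013919 per astrocyte library and from 2271834 to 22274367 per microglia library, so 3 counts corresponded to 0.158 to 0.817 CPM (the counts of a gene scaled to a common library size) in astrocytes and 0.135 to 1.32 CPM in microglia. In each cell type 1 library stood apart from its own group: control replicate 2 of the astrocytes (mean r of log2 CPM of 0.947 with the other 2, against 0.965 and 0.964 for them) and Aβ42 replicate 1 of the microglia (0.961 against 0.979 and 0.978). The second of these held 2613723 counts, where the other microglial Aβ42 libraries held 22274367 and 17687416. Values are given below as CPM scaled by the trimmed mean of M-values (TMM) within a cell type, for replicates 1, 2 and 3 in that order. The microglial markers summed to 6623 to 7942 scaled CPM in control microglia and to 403 to 507 in control astrocytes, and the astrocyte markers to 8962 to 10884 in control astrocytes and 247 to 277 in control microglia. The microglial sums with fibrils were lower, at 1702 to 2604 with Aβ42 and 2243 to 2726 with Aβ40 in microglia, and at 159 to 172 and 136 to 151 in astrocytes. The astrocyte sums in astrocytes were lower too, at 5761 to 5996 with Aβ42 and 6395 to 6690 with Aβ40, with 6 of 9 markers called lower with each fibril and 2 and 3 called higher. Of the 10 microglial markers, 1 was called higher and 8 lower in microglia with Aβ42, and 1 higher and 9 lower with Aβ40. In astrocytes 0 of them were called higher, and 8 and 9 lower. The part of these marker changes in the ligand results was not tested. Markers of the oligodendrocyte lineage summed to 1873 to 2637 scaled CPM over all microglial libraries, and those of T cells and neutrophils to at most 0.399 in any library, with Cd3e, Cd3g and Elane among the markers at or near 0. Fewer cells of a type, less RNA per cell and lower expression of the marker genes themselves cannot be told apart in bulk RNA.

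In astrocytes 9 of the ligands rose with either fibril, and 9 rose in microglia with Aβ42 and 8 with Aβ40. In astrocytes 9 of 10 passed the test upward with Aβ42 (edgeR quasi-likelihood test, Benjamini-Hochberg adjusted p under 0.05 over all genes tested), where 16.5% of the 11690 genes tested were called higher and 20.4% lower, and their median log2 fold change was 6.07 against -0.0047 over all genes. With Aβ40 the count was again 9 of 10, against 14.9% of all genes called higher and 18.4% called lower, and the median was 5.70 against 0.0017. In microglia 9 of 10 were called higher with Aβ42, where 27.1% of the 10837 genes tested were called higher and 26.6% lower, with a median log2 fold change of 3.41 against 0.0096 over all genes. With Aβ40 the count was 8 of 10, where 19.6% of all genes were called higher and 21.4% lower, with a median of 3.74 against 0.0054. No ligand was called lower in these 4 comparisons. Cxcl2, Cxcl3, Cxcl9 and Cxcl13 in astrocytes and Cxcl9, Cxcl11, Cxcl12 and Cxcl13 in microglia held only 2 to 19 counts over their controls. These passed the expression filter only through treated libraries, so a lower call was hardly open to them. The counts of ligands called higher include them. The treated and control libraries of a ligand did not overlap for 9 and 10 ligands in astrocytes with Aβ42 and Aβ40, against 45.7% and 43.2% of all genes, and for 9 and 8 ligands in microglia, against 54% and 59.5%. The Aβ42 and Aβ40 comparisons of a cell type share their 3 control libraries, so their likeness is not independent evidence.

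**Figure D1:**
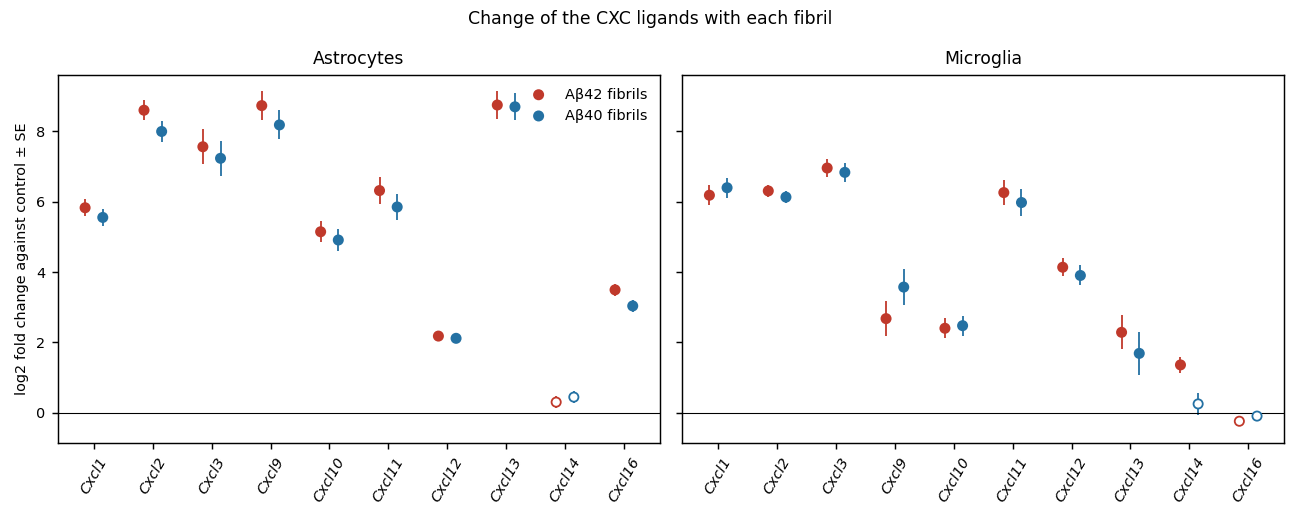
Log2 fold change against control, with its standard error, for each ligand in astrocytes (left) and microglia (right), Aβ42 fibrils in red and Aβ40 fibrils in blue, filled where the adjusted p is under 0.05. In astrocytes Cxcl14 alone is open, at 0.30 and 0.44, and in microglia Cxcl16 lies at -0.24 and -0.098 and Cxcl14 is filled with Aβ42 only.

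The ligands that rest near the detection limit in astrocytes were those with the largest fitted changes. The neutrophil-attracting Cxcl1, Cxcl2 and Cxcl3 rose in both cell types, to lower levels in astrocytes than in microglia. Their genes lie close together on chromosome 14, Cxcl2 beside Cxcl1, and Cxcl3 next to Pf4. The bases before the annotated starts of Cxcl1 and Cxcl2 are shown because both genes rose from low controls and both windows hold NF-κB-type letters. Sequences here are from RefSeq on assembly GRCr8, a later build than the rn5 to which the reads were aligned, run 5′ to 3′ and end at the base before the start, and capitals mark matches, on either strand, to GGGA, any 4 bases and CC (called the κB letters here) or to GAAA, any 2 bases and GAAA (the letters of the interferon-stimulated response element, ISRE). Overlapping matches are shown as 1 run.
Cxcl1, chr14:17479322-17479451, minus strand: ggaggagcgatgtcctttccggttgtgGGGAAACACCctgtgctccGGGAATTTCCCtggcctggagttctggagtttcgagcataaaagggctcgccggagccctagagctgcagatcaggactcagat
Cxcl2, chr14:17467256-17467385, minus strand: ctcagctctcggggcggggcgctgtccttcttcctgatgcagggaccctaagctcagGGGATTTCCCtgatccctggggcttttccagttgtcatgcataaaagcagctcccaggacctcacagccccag
The κB letters stood from -103 to -94 and from -84 to -74 in Cxcl1, counted in bases from the start, and from -73 to -64 in Cxcl2. Of the 33469 windows of 250 bases before a start, 16.4% held the κB letters and 3.41% the ISRE letters, and of the 9 windows matched to the ligands 6 and 1 did. A match of letters is a description and does not show that a factor bound.

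Cxcl1 mRNA stood at 11.4, 12.7 and 6.19 scaled CPM in the control astrocytes, 504, 552 and 561 with Aβ42 and 459, 437 and 440.3 with Aβ40. Every treated library lay far above every control, and control replicate 3 was the lowest of its group. The log2 fold changes were 5.83 ± 0.24 (SE, adjusted p = 2.46e-08) and 5.55 ± 0.24 (SE, adjusted p = 3.57e-08). In microglia the controls held 40.2, 38.8 and 27.1 scaled CPM, the Aβ42 libraries 3591, 1862 and 2294 and the Aβ40 libraries 2742, 2665 and 3565, the widest spread being within Aβ42, where the shallow replicate 1 was highest. These were log2 fold changes of 6.19 ± 0.28 (SE, adjusted p = 4.89e-09) and 6.4 ± 0.28 (SE, adjusted p = 5.31e-09). Neither the astrocyte nor the microglial treated libraries reached down to a control library.

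Cxcl2 was almost undetected in control astrocytes, with 0, 1 and 4 counts in the 3 libraries. It stood at 86.9, 92.1 and 97.3 scaled CPM with Aβ42 and 65.9, 53.8 and 62 with Aβ40, so that each Aβ42 library lay above each Aβ40 library. Against control this gave log2 fold changes of 8.61 ± 0.28 (SE, adjusted p = 5.47e-09) and 8.0 ± 0.29 (SE, adjusted p = 1.09e-08), and since the controls held 5 counts together the ratio of the summed counts, adjusted for depth, was 401 (95% interval 171 to 1235) and 261 (95% interval 112 to 804), an interval that covers counting error only. In microglia Cxcl2 was readily detected without fibrils, at 30.3, 27 and 22.7 scaled CPM, and stood at 2384, 1759.9 and 2225 with Aβ42 and 1852, 1791 and 1992 with Aβ40. All treated microglial libraries were well above the controls, and the 2 fibrils overlapped. On the log2 scale the changes were 6.31 ± 0.17 (SE, adjusted p = 2.45e-10) and 6.13 ± 0.17 (SE, adjusted p = 3.31e-10). In astrocytes they were 9.36 and 8.75 without control replicate 3.

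Cxcl3 was likewise almost undetected in control astrocytes and readily detected in control microglia. Control astrocytes held 3, 0 and 3 counts, and the treated astrocytes 67.8, 57.8 and 37.5 scaled CPM with Aβ42 and 32.6, 51 and 46.3 with Aβ40, the 2 fibrils overlapping. edgeR put the log2 fold changes at 7.57 ± 0.49 (SE, adjusted p = 6.72e-07) and 7.24 ± 0.5 (SE, adjusted p = 1.11e-06), and the depth-adjusted ratios of the summed counts, from 6 control counts, 209 (95% interval 96 to 571) and 166 (95% interval 76.1 to 453). Microglia held 11, 17.6 and 7.02 scaled CPM in the controls, 1524, 1265 and 1558 with Aβ42 and 1251, 1272 and 1468 with Aβ40. The controls differed among themselves in proportion by more than the treated libraries did, yet no treated library came near them. This amounted to log2 fold changes of 6.96 ± 0.26 (SE, adjusted p = 1.36e-09) and 6.84 ± 0.26 (SE, adjusted p = 1.88e-09). In astrocytes they were 8.32 and 7.99 without control replicate 1.

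Together these 3 mRNAs took 0.0075% ± 0.0016 of the gene counts in control microglia (SD, n = 3), 0.609% ± 0.106 with Aβ42 and 0.614% ± 0.051 with Aβ40. In astrocytes their share was 0.0011% ± 0.00035, 0.0676% ± 0.0026 and 0.0544% ± 0.0014 (SD, n = 3). Within the 3, Cxcl2 made up 36.5% ± 3.81 of the counts in control microglia and 34.8% ± 2.62 and 30.4% ± 1.81 with the fibrils, but 13.4% ± 0.48 and 11% ± 0.97 in the treated astrocytes. These paralogs are similar in sequence, and how reads shared between them were counted is not given in the sources used here. Summed with their paralog Cxcl6 as 1 feature, an alternative chosen after seeing the data, they gave log2 fold changes of 6.39 ± 0.25 and 6.08 ± 0.25 in astrocytes and 6.4 ± 0.22 and 6.41 ± 0.22 in microglia (SE, edgeR adjusted p from 8.12e-10 to 2.42e-08).

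Of the Cxcr3 ligands, Cxcl9 and Cxcl10 rose more in astrocytes than in microglia, and for Cxcl11 that difference was not called (tests given with the comparison of responses). Cxcl11, Cxcl10 and Cxcl9 are neighbours in that order on chromosome 14. Their upstream windows are shown because each holds κB letters and the Cxcl10 window is the only 1 of the 9 with the ISRE letters.
Cxcl9, chr14:16007036-16007165, plus strand: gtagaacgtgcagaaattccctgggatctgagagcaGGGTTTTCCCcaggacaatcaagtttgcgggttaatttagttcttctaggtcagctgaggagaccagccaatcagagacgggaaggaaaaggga
Cxcl10, chr14:15988816-15989065, plus strand: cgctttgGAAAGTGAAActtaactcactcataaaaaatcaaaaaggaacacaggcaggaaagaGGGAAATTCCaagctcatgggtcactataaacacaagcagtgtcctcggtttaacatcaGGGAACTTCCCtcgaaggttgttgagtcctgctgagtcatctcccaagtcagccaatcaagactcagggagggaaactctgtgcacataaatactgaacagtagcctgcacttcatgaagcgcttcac
Cxcl11, chr14:15973598-15973727, plus strand: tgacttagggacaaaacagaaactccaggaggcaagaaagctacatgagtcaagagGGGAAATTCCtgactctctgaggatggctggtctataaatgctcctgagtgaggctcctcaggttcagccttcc
The κB letters lay from -94 to -85 in Cxcl9, on the reverse strand, from -187 to -178 and from -128 to -118 in Cxcl10, and from -74 to -65 in Cxcl11. The ISRE letters in Cxcl10 lay from -243 to -234.

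**Figure D2:**
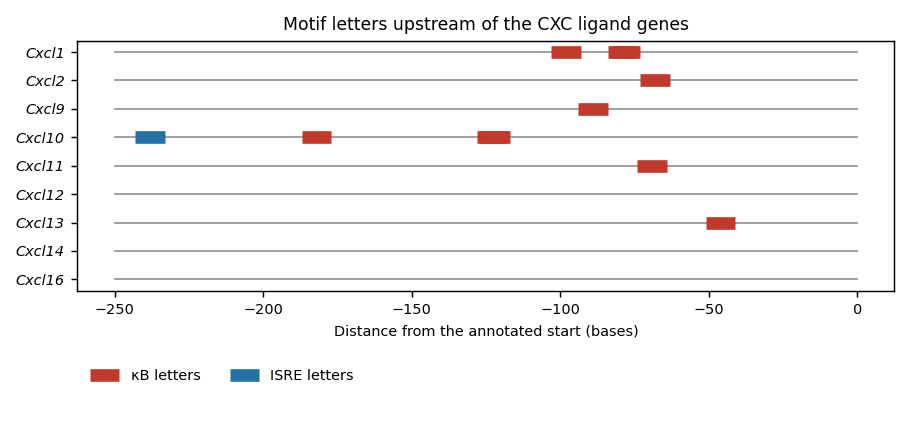
Matches to the κB letters (red) and ISRE letters (blue), on either strand, in the 250 bases before the annotated start of 9 ligand genes, by distance from the start in bases. Cxcl1, Cxcl2, Cxcl9, Cxcl10, Cxcl11 and Cxcl13 hold the κB letters, the nearest from -51 to -42 in Cxcl13, and Cxcl12, Cxcl14 and Cxcl16 hold neither set.

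Cxcl9 counts in the control astrocytes were 1, 2 and 1. The Aβ42 astrocytes held 90.9, 84.3 and 77.2 scaled CPM and the Aβ40 astrocytes 42.8, 73.6 and 55.8, with each Aβ42 library above each Aβ40 library. The log2 fold changes were 8.74 ± 0.41 (SE, adjusted p = 5.70e-08) and 8.19 ± 0.41 (SE, adjusted p = 1.18e-07), and the depth-adjusted ratios of the summed counts 469.6 (95% interval 183 to 1725) and 333 (95% interval 129.9 to 1223). Microglial Cxcl9 stayed low throughout, at 0.118, 0.966 and 0.458 scaled CPM in the controls, 5.2, 2.38 and 3.02 with Aβ42 and 5.55, 4.92 and 6.44 with Aβ40. The treated microglia did not overlap the controls, and 2 of the 3 Aβ42 libraries lay under the whole Aβ40 group. These were log2 fold changes of 2.68 ± 0.49 (SE, adjusted p = 6.74e-04) and 3.57 ± 0.5 (SE, adjusted p = 1.12e-04), from 9 control counts in all. With so few counts single controls moved the values: in astrocytes they were 9.42 and 8.87 without control replicate 2 and 7.73 and 7.18 without control replicate 3, and in microglia 3.4 and 4.31 without control replicate 2, all still called.

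Cxcl10 was detected in both cell types without fibrils, at 12.8, 23 and 8.86 scaled CPM in astrocytes and 15.8, 9.27 and 9.76 in microglia. In astrocytes it stood at 459, 530.2 and 524 with Aβ42 and 469, 369.8 and 447 with Aβ40, and control replicate 2, the library that stood apart, was the highest control. Against control this gave log2 fold changes of 5.15 ± 0.3 (SE, adjusted p = 3.09e-07) and 4.91 ± 0.3 (SE, adjusted p = 4.84e-07). In microglia the treated libraries held 44.4, 56.2 and 82.9 scaled CPM with Aβ42 and 85.4, 60.4 and 49.6 with Aβ40, spread about as widely within each fibril as between them and clear of the controls. On the log2 scale the changes were 2.4 ± 0.28 (SE, adjusted p = 1.71e-05) and 2.47 ± 0.29 (SE, adjusted p = 2.09e-05).

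Cxcl11 rose from very low levels in both cell types. Astrocytes went from 1.11, 4.55 and 1.06 scaled CPM in the controls to 135, 152 and 168 with Aβ42 and 118, 100.1 and 111 with Aβ40, and microglia from 0.942, 0.966 and 0 to 37.6, 52.8 and 57 and 44.9, 40.9 and 37.7. In neither cell type did a treated library overlap a control, though control replicate 2 of the astrocytes was well above the other controls. The astrocyte log2 fold changes were 6.32 ± 0.38 (SE, adjusted p = 3.57e-07) and 5.85 ± 0.38 (SE, adjusted p = 7.13e-07), and without that library they were 7.14 (adjusted p = 1.18e-10) and 6.67 (adjusted p = 2.66e-10), and 5.69 and 5.22 without control replicate 3. In microglia the log2 fold changes were 6.26 ± 0.36 (SE, adjusted p = 3.26e-08) and 5.98 ± 0.37 (SE, adjusted p = 9.12e-08), against controls with 13 counts in all, where the depth-adjusted ratios of the summed counts were 83.5 (95% interval 48.7 to 157) and 65 (95% interval 37.6 to 123). Without microglial control replicate 1 the second of these fold changes was 6.56 on the log2 scale.

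Cxcl12, the homeostatic member, rose in both cell types from very different starting levels. Its upstream window is shown as the contrast, since neither set of letters was found in the 250 bases before its start.
Cxcl12, chr4:152060651-152060780, plus strand: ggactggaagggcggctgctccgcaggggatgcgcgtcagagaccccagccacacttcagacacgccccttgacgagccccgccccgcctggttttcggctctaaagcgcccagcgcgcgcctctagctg
Control astrocytes held 95.7, 127 and 113 scaled CPM, the Aβ42 astrocytes 485, 528 and 508 and the Aβ40 astrocytes 508, 487 and 461, 2 treated groups that overlapped each other and not the controls. edgeR put the log2 fold changes at 2.18 ± 0.13 (SE, adjusted p = 3.06e-07) and 2.11 ± 0.13 (SE, adjusted p = 4.32e-07), which is 4.53-fold and 4.33-fold. Control microglia held 6, 5 and 8 counts of Cxcl12, at 0.707, 0.966 and 1.22 scaled CPM, and the treated microglia held 13.2, 18.9 and 16.5 with Aβ42 and 13.8, 12.7 and 17.5 with Aβ40. Every treated microglial library was over 10 times the highest control. This amounted to log2 fold changes of 4.14 ± 0.26 (SE, adjusted p = 7.31e-08) and 3.9 ± 0.28 (SE, adjusted p = 3.57e-07), and the depth-adjusted ratios of the summed counts 18.7 (95% interval 11.9 to 31.3) and 15 (95% interval 9.28 to 25.6). Marker sums of other cell types in the same microglia stood at 247 to 277 scaled CPM in the controls and 238 to 281 with fibrils for astrocytes, where 3 of the 8 markers tested were called higher and 1 lower with each fibril. The fibroblast markers went from 55.4 to 67.8 in the controls to 134 to 162 with Aβ42 and 119 to 125 with Aβ40, and the neuron markers from 63.1 to 81.9 to 112 to 133 and 121 to 150. Of 4 fibroblast markers tested, 3 were called higher and 0 lower with Aβ42, and 2 higher and 1 lower with Aβ40. Of 4 neuron markers tested, 1 was called higher with Aβ42 and 2 with Aβ40, and 0 lower. Their median log2 fold changes were -0.13 and 0.68. The endothelial markers went from 186 to 190 in the controls to 42.1 to 64.4 with Aβ42 and 89.9 to 114 with Aβ40. Of 4 endothelial markers tested, 0 were called higher and 3 lower with Aβ42, and 1 higher and 2 lower with Aβ40. The part of these cells in microglial Cxcl12 was not tested.

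Cxcl14 was the ligand that changed least in astrocytes. Its values there were 302, 181 and 227 scaled CPM in the controls, 309.6, 302 and 261 with Aβ42 and 307, 321 and 337 with Aβ40, and the highest control lay within the Aβ42 range and just under the Aβ40 range. The log2 differences of 0.3 ± 0.17 and 0.44 ± 0.17 (SE) did not pass the test, with adjusted p = 0.199 and 0.068. Without control replicate 1, the highest control, they were 0.52 (adjusted p = 0.0158) and 0.66 (adjusted p = 0.00552). In microglia Cxcl14 was low, at 27, 17 and 19 counts in the controls, and it stood at 3.18, 3.28 and 2.9 scaled CPM there, 4.4, 7.97 and 9.41 with Aβ42 and 3.38, 4.03 and 3.68 with Aβ40. The Aβ42 libraries were all above the others, the shallow replicate 1 by little. The log2 fold changes were 1.36 ± 0.24 (SE, adjusted p = 4.62e-04) and 0.25 ± 0.32 (SE, adjusted p = 0.57), so the change with Aβ40 did not pass the test.

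Cxcl13, the B cell attractant, was at 0, 1 and 1 counts in the control astrocytes. With fibrils it stood at 39.4, 45.2 and 48.6 scaled CPM for Aβ42 and 52.5, 40.8 and 35.4 for Aβ40, the 2 groups overlapping. These were log2 fold changes of 8.75 ± 0.39 (SE, adjusted p = 4.11e-08) and 8.7 ± 0.39 (SE, adjusted p = 4.92e-08), and with 2 control counts in all the depth-adjusted ratios of the summed counts were 478 (95% interval 132 to 3952) and 456 (95% interval 126 to 3772). In microglia the values were 0.589, 0.773 and 1.22 scaled CPM in the controls, 4.0, 2.73 and 5.82 with Aβ42 and 4.34, 2.24 and 0.919 with Aβ40, and the lowest Aβ40 library, with 2 counts, lay inside the control range. Against control this gave log2 fold changes of 2.29 ± 0.49 (SE, adjusted p = 0.00191) and 1.69 ± 0.62 (SE, adjusted p = 0.047). The second was lost in 5 of the 6 fits that left out 1 of its libraries (every control, and Aβ40 replicates 1 and 2), with values from 1.07 to 2.05 and adjusted p from 0.0547 to 0.307. In astrocytes the changes were 9.38 and 9.33 without control replicate 2.

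Cxcl16, the membrane-bound ligand, behaved differently in the 2 cell types. In astrocytes it stood at 135, 130.4 and 88.8 scaled CPM in the controls, 1275, 1364 and 1327 with Aβ42 and 958, 952 and 979 with Aβ40, 3 groups of which none overlapped another. On the log2 scale the changes were 3.49 ± 0.16 (SE, adjusted p = 5.95e-08) and 3.04 ± 0.16 (SE, adjusted p = 1.60e-07), which is 11.3-fold and 8.2-fold. Microglia held much Cxcl16 without fibrils, at 719.9, 709 and 698 scaled CPM, and 739.7, 512 and 548 with Aβ42 and 646, 622 and 720.3 with Aβ40. Both treated groups overlapped the controls. The log2 differences of -0.24 ± 0.13 and -0.1 ± 0.13 (SE) did not pass the test, with adjusted p = 0.137 and 0.594 and 95% intervals of -0.53 to 0.04 and -0.39 to 0.19. Without the shallow Aβ42 replicate 1, the highest of its group, the first was -0.42 (adjusted p = 3.85e-04), a call for a lower level.

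**Figure D3:**
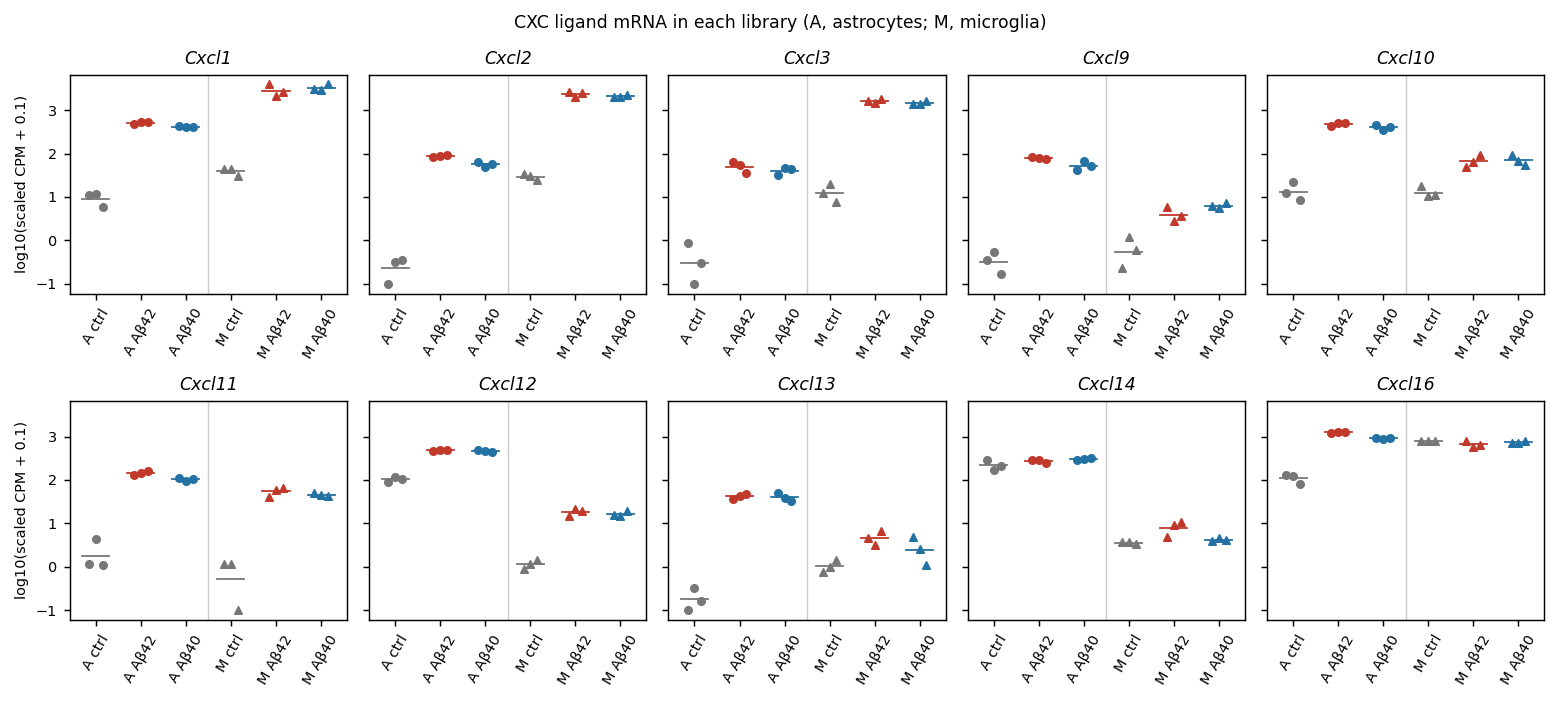
Scaled CPM of each ligand in each of the 18 libraries, on a log10 axis after adding 0.1, with 1 scaling across both cell types; circles are astrocytes (A), triangles microglia (M), and bars the mean of the plotted values. Cxcl2 and Cxcl3 are highest in treated microglia and near the bottom of the axis in control astrocytes, and Cxcl16 in treated astrocytes reaches the level that microglia hold in all 3 groups.

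Few ligands passed the test between the 2 fibrils, although in astrocytes the libraries of 5 ligands were separated by fibril. In astrocytes 0 of 10 ligands were called between Aβ42 and Aβ40, where 0.0599% of all genes were called higher and 0.0257% lower, and the median log2 difference of the ligands was 0.30 against -2.5e-05 over all genes. With edgeR the unadjusted p was under 0.05 for 3 ligands, and the DESeq2 Wald test called 1. For 5 ligands, Cxcl1, Cxcl2, Cxcl9, Cxcl11 and Cxcl16, the Aβ42 libraries lay above the Aβ40 libraries without overlap, where 18.9% of all genes did not overlap in either direction. The differences were 0.61 ± 0.15 (SE, adjusted p = 0.212) for Cxcl2, 0.55 ± 0.21 (SE, adjusted p = 0.567) for Cxcl9 and 0.46 ± 0.15 (SE, adjusted p = 0.397) for Cxcl16. In a fit of these 2 groups alone Cxcl2 and Cxcl16 passed, at 0.61 (adjusted p = 0.0226) and 0.46 (adjusted p = 0.00773).

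In microglia 1 of 10 was called between the fibrils, Cxcl14, higher with Aβ42, where 11.3% of all genes were called higher and 9.01% lower. Its log2 difference was 1.11 ± 0.27 (SE, adjusted p = 0.023), and the call was lost in 5 of the 6 fits that left out 1 library, with adjusted p from 0.0715 to 0.125, and in the fit of the 2 groups alone. The 1 fit that kept it left out Aβ42 replicate 1. That fit also called Cxcl1 at -0.53 (adjusted p = 0.00714), Cxcl9 at -1.04 (adjusted p = 0.00865), Cxcl11 at 0.4 (adjusted p = 0.025) and Cxcl16 at -0.32 (adjusted p = 0.00553), while the number of genes called over all went from 2198 to 6004. With all libraries the Cxcl9 difference was -0.9 ± 0.34 (SE) and missed the threshold at adjusted p = 0.0737. Among the remaining differences, the 95% intervals were -0.7 to 0.27 for Cxcl1, -0.11 to 0.46 for Cxcl2 and -0.38 to 1.58 for Cxcl13.

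Without fibrils most of the ligands were called different between the cell types, and so were most of the genes tested. Between control astrocytes and control microglia, fitted with all 18 libraries, 2 ligands were called higher in astrocytes and 5 lower, where 34.5% of the 11581 genes tested were called higher and 34.2% lower. Cxcl12 and Cxcl14 were the 2 higher in astrocytes, by 6.62 ± 0.22 (SE, adjusted p = 6.55e-15) and 5.99 ± 0.23 (SE, adjusted p = 4.04e-14) on the log2 scale. Cxcl1, Cxcl2, Cxcl3, Cxcl13 and Cxcl16 were higher in microglia, the log2 differences being -2.17 ± 0.27, -7.06 ± 0.3, -5.59 ± 0.55, -3.28 ± 0.97 and -2.85 ± 0.15 (SE, adjusted p from 1.41e-13 to 0.00566). The Cxcl10 difference between the controls was 0.0077 ± 0.34 (SE, adjusted p = 0.987), and Cxcl9 and Cxcl11 did not pass. Single astrocyte controls moved the values of Cxcl2 to -7.79 (without replicate 3), Cxcl3 to -6.25 (without replicate 1) and Cxcl13 to -3.87 (without replicate 2). The call of Cxcl13 was lost without astrocyte control replicate 3, at -2.82 (adjusted p = 0.0768). Scaling by library totals alone moved the median of all genes in this comparison by 0.28 and the share of calls that were higher in astrocytes from 50.2% to 62.6%, with 3 ligands then higher, Cxcl11 being the addition, and 5 lower.

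The response to fibrils differed between the cell types for 7 ligands with Aβ42 and 6 with Aβ40. With Aβ42, 5 responses were greater in astrocytes and 2 greater in microglia, where 17.9% and 19.3% of all genes tested were called in those directions, and with Aβ40 the counts were 5 and 1, against 16.5% and 16%. The largest differences were those of Cxcl13, 6.43 ± 0.97 (SE, adjusted p = 3.73e-05) and 7.0 ± 1.0 (SE, adjusted p = 2.37e-05), and Cxcl9, 6.03 ± 1.01 (SE, adjusted p = 1.13e-04) and 4.61 ± 0.98 (SE, adjusted p = 0.00123), both greater in astrocytes. Leaving out 1 library put the Cxcl9 difference between 5.02 and 6.71 with Aβ42 and between 3.59 and 5.27 with Aβ40, the lowest without astrocyte control replicate 3 and the highest without astrocyte control replicate 2. It was 6.62 and 5.21 without microglial control replicate 1 and 5.3 and 3.89 without microglial control replicate 2, and each of these fits kept the call. The Cxcl13 difference was 7.03 and 7.59 without astrocyte control replicate 2, and 7.63 with Aβ40 without microglial Aβ40 replicate 1, and rested on 2 counts in control astrocytes. Cxcl16 and Cxcl10 were also greater in astrocytes, Cxcl16 by 3.75 ± 0.21 and 3.15 ± 0.21 and Cxcl10 by 2.76 ± 0.43 and 2.46 ± 0.43 (SE, adjusted p of at most 2.16e-04). The response of Cxcl12 was greater in microglia with both fibrils, at -1.96 ± 0.29 (SE, adjusted p = 3.37e-05) and -1.78 ± 0.3 (SE, adjusted p = 1.58e-04), and that of Cxcl14 with Aβ42, at -1.06 ± 0.3 (SE, adjusted p = 0.00856). The Cxcl14 difference with Aβ40 was not called, with a 95% interval of -0.55 to 0.97.

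Cxcl2 was the other ligand with a greater response in astrocytes, by 2.29 ± 0.44 (SE, adjusted p = 4.11e-04) and 1.87 ± 0.45 (SE, adjusted p = 0.00327). This rests on the 5 counts in control astrocytes and was 3.02 and 2.6 without their control replicate 3, and the feature that sums Cxcl1, Cxcl2, Cxcl3 and Cxcl6 differed by 0.02 ± 0.27 and -0.30 ± 0.30 (SE), with adjusted p = 0.97 and 0.48, so the call did not hold for the sum. The differences of Cxcl1, Cxcl3 and Cxcl11 were not called, with 95% intervals for Aβ42 of -1.05 to 0.4, -0.97 to 2.19 and -1.82 to 1.98. That of Cxcl1 with Aβ40 was -0.81 ± 0.35 (SE, adjusted p = 0.0822), and -1.18 (adjusted p = 0.0097) without control replicate 3 of the astrocytes.

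**Figure D4:**
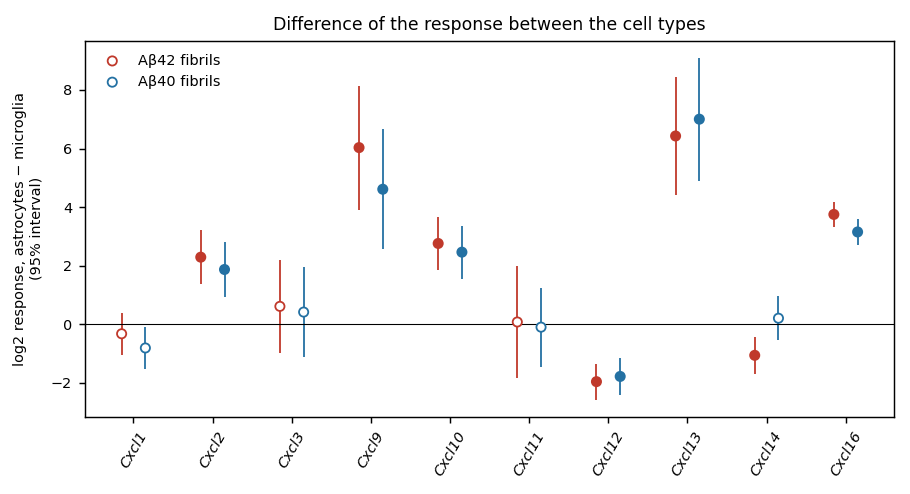
Log2 fold change in astrocytes minus that in microglia, with its 95% interval, for each ligand with Aβ42 (red) and Aβ40 (blue) fibrils; filled points have an adjusted p under 0.05 and points above 0 responded more in astrocytes. Cxcl9, Cxcl10, Cxcl13 and Cxcl16 lie above 0 with both fibrils, Cxcl12 below 0 with both, and Cxcl1, Cxcl3 and Cxcl11 are open.

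As levels, on the scaling shared by all 18 libraries, astrocytes held 24% of the microglial Cxcl1 level in the controls, 17.7% with Aβ42 and 12.7% with Aβ40. For Cxcl2 those shares were 0.545%, 3.67% and 2.75%, and for Cxcl3 2.48%, 3.17% and 2.77%. The 10 microglial markers in astrocytes had a median of 6.41% of their microglial level in the controls, 3.4% with Aβ42 and 1.62% with Aβ40, with ranges of 2.34% to 59.6%, 0.786% to 105% and 0.606% to 172%, and the part of microglia left in the astrocyte cultures in their Cxcl2 and Cxcl3 was not tested. The treated astrocytes held more than the treated microglia of Cxcl9, by 20.2 times with Aβ42 and 8.65 times with Aβ40, of Cxcl10, by 6.95 and 5.6 times, and of Cxcl13, by 8.98 and 14.6 times. The same held for Cxcl11, by 2.6 and 2.27 times, Cxcl12, by 26.4 and 28.2 times, and Cxcl14, by 33.7 and 74 times. In the controls those last 3 ligands stood at 2.96, 97.6 and 63.8 times the microglial level. Cxcl16 went from 14% of the microglial level in the controls to 187% and 124%. These ratios of treated levels are descriptions, and the tests between the cell types are those of the controls and of the responses above.

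Of the 10 receptors and decoy receptors listed, 8 were in the tables and few were expressed enough to test. Cxcr1, Cxcr2, Cxcr3, Cxcr6 and Ackr2 fell under the filter in both cell types, and the largest count of any of them in a library was 16, for Cxcr3 in an astrocyte control. Cxcr4, the receptor of Cxcl12, fell in both cell types. In microglia it went from 98.9, 97.5 and 95.5 scaled CPM in the controls to 2.8, 10.4 and 10.9 with Aβ42 and 4.83, 7.16 and 5.06 with Aβ40, log2 fold changes of -3.36 ± 0.24 (SE, adjusted p = 2.14e-07) and -4.06 ± 0.28 (SE, adjusted p = 2.46e-07). In astrocytes it went from 111, 92.4 and 116 to 49, 56 and 55 and 63.3, 51.2 and 60.8, -1.0 ± 0.14 (SE, adjusted p = 2.15e-04) and -0.87 ± 0.14 (SE, adjusted p = 6.36e-04), and the fall was greater in microglia, by 2.39 ± 0.3 (SE, adjusted p = 5.54e-06) and 3.22 ± 0.34 (SE, adjusted p = 7.30e-07). Ackr3, which scavenges Cxcl12, rose in microglia by 2.29 ± 0.25 (SE, adjusted p = 1.01e-05) and 2.02 ± 0.27 (SE, adjusted p = 8.30e-05) and did not pass in astrocytes, where it held 46.5 to 66.5 scaled CPM over the 9 libraries. Cxcr5, the receptor of Cxcl13, was tested in astrocytes alone and did not pass, at 1 to 17 counts a library.

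Among the 6 other ligands and platelet factors listed, 4 were in the tables and 3 could be tested in each cell type. Cxcl6, a further neutrophil attractant, rose with both fibrils in both. Astrocytes held 2, 4 and 1 counts of it in the controls and 172, 202 and 197 scaled CPM with Aβ42 and 176, 134 and 163 with Aβ40, and microglia 5, 1 and 2 counts and 108, 126 and 121 and 136, 130.4 and 111 scaled CPM. No treated library of either cell type came near a control, and the log2 fold changes were 9.11 ± 0.39 and 8.84 ± 0.39 in astrocytes and 8.18 ± 0.22 and 8.27 ± 0.23 in microglia (SE, adjusted p of at most 4.26e-08). Cxcl17 rose by 8.34 ± 0.33 and 7.96 ± 0.34 in astrocytes and by 2.14 ± 0.21 and 3.02 ± 0.21 in microglia (SE). Its response was greater in astrocytes by 6.17 ± 0.46 (SE, adjusted p = 5.33e-09) and 4.94 ± 0.47 (SE, adjusted p = 2.05e-07). The astrocyte controls held 5 counts of Cxcl17 in all, so its astrocyte folds and the difference between the cell types were loosely bounded. The depth-adjusted ratios of its summed counts in astrocytes were 341 (counting interval 146 to 1052) and 271 (counting interval 116 to 835). Pf4, platelet factor 4, rose in microglia by 1.66 ± 0.14 (SE, adjusted p = 8.68e-07) and 1.18 ± 0.14 (SE, adjusted p = 2.06e-05) and held 2.62 to 4.78 scaled CPM over the astrocyte libraries, where it did not pass.

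Proteases that trim or shed these ligands moved as well. Of 6 listed, 5 could be tested in each cell type. In astrocytes 4 were called higher and 0 lower with either fibril. In microglia 3 were called higher and 2 lower with Aβ42, and 2 higher and 1 lower with Aβ40. The shares of all genes are those given above. Mmp9, a gelatinase that cuts several CXC ligands, rose by 6.92 ± 0.2 and 6.25 ± 0.2 in astrocytes and 3.66 ± 0.15 and 3.89 ± 0.15 in microglia (SE), and Mmp12, the macrophage elastase, by 4.32 ± 0.32 and 4.61 ± 0.31 and by 7.46 ± 0.23 and 7.29 ± 0.23. The astrocyte controls held 8 counts of Mmp12 in all. Adam17, a sheddase, rose in astrocytes by 1.02 ± 0.12 and 0.64 ± 0.12 and fell in microglia, at -0.79 ± 0.11 and -0.55 ± 0.11, a difference of 1.82 ± 0.16 (SE, adjusted p = 4.26e-08) and 1.2 ± 0.16 (SE, adjusted p = 8.35e-06). Adam10, the constitutive sheddase of Cxcl16, did not pass in astrocytes and was lower in microglia with Aβ42, at -0.85 ± 0.16 (SE, adjusted p = 9.21e-04).

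Of the 16 listed factors that act at CXC promoters or on the decay of their mRNAs, 14 were in the tables, and 12 were called higher with each fibril in astrocytes and none lower, where 16.5% and 14.9% of all genes were called higher with Aβ42 and Aβ40. In microglia 10 were higher and 2 lower with Aβ42, against 27.1% and 26.6% of all genes, and 10 higher and 1 lower with Aβ40, against 19.6% and 21.4%. Irf1, an interferon-responsive factor that acts at these promoters, stood at 45.4, 40.5 and 54.2 scaled CPM in control astrocytes and 260.0, 249.8 and 239 with Aβ42, and at 78.9, 72.4 and 81.4 and 63.6, 83 and 87.1 in microglia. Its log2 change was 2.41 ± 0.13 and 2.53 ± 0.13 in astrocytes and 0.02 ± 0.12 and 0.03 ± 0.13 in microglia, where it did not pass, and the responses differed by 2.39 ± 0.18 (SE, adjusted p = 9.67e-09) and 2.51 ± 0.19 (SE, adjusted p = 7.40e-09). Irf7 rose in both cell types, by 5.44 ± 0.14 and 5.26 ± 0.13 in astrocytes and 2.09 ± 0.27 and 1.96 ± 0.27 in microglia. Nfkbia, the NF-κB inhibitor that NF-κB itself induces, rose in both, by 2.65 ± 0.11 and 2.65 ± 0.11 against 2.42 ± 0.13 and 2.49 ± 0.13, and the difference between the cell types was not called, with intervals of -0.08 to 0.57 and -0.16 to 0.5. Zc3h12a, an endonuclease that degrades inflammatory mRNAs, rose by 4.04 ± 0.29 and 4.0 ± 0.29 and by 3.22 ± 0.13 and 3.14 ± 0.13, and Zfp36, which destabilises AU-rich mRNAs, was called higher in microglia alone, where the difference between the cell types passed with Aβ40 at -1.17 ± 0.32 (SE, adjusted p = 0.00827) and not with Aβ42 at -0.81 ± 0.32 (SE, adjusted p = 0.0527).

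**Figure D5:**
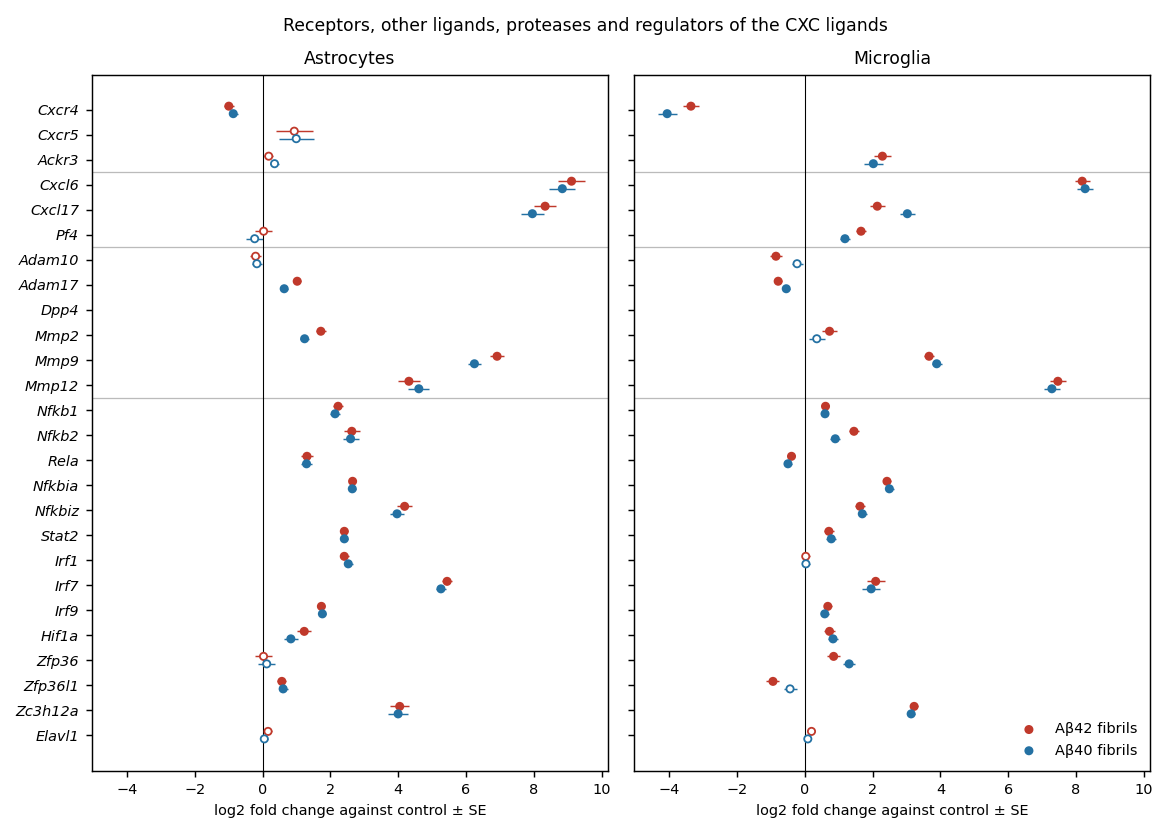
Log2 fold change against control, with its standard error, of the tested receptors, other ligands, proteases and regulators (top to bottom, separated by lines) in astrocytes (left) and microglia (right), Aβ42 in red and Aβ40 in blue, filled where the adjusted p is under 0.05. Cxcr4 lies to the left of 0 in both cell types, and the astrocyte points of Irf1 lie at 2.41 and 2.53 while its microglial points lie at 0.02 and 0.03.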

How the data were processed

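Poly(A) RNA was sequenced with a stranded kit in 18 libraries (3 in each of 6 groups), and the submitters' processing notes name STAR, Salmon, DESeq2 and rn5, without versions. The authors deposited 1 table of whole-number read counts per gene symbol for each library, not normalized, and the rule for reads shared between genes is not given in the sources used here. Rows that name no gene held 26.0% to 34.2% of the counts in astrocytes and 21.7% to 24.5% in microglia and were left out. Nothing in the labels says that libraries came from separate animals or cultures, so p-values measure the spread between these libraries, which may be technical.

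Genes were filtered with filterByExpr (minimum count 10, minimum total 15) in edgeR 4.0.16 under R 4.3.3, scaled by TMM and tested with the quasi-likelihood F test on the 9 libraries of a cell type, or on all 18 and the 16704 shared symbols for differences between cell types. A gene was called at a Benjamini-Hochberg adjusted p under 0.05 over all genes tested, and the standard error is the fold change divided by the square root of F. The exact permutation test of 3 against 3 cannot go below p = 0.1 and was not used. Tested on simulated data, the procedure recovered 99.5% of 200 genes changed 8-fold in the Aβ42 comparison of astrocytes (11690 genes). The simulation used a common spread for all genes and no change but 8-fold, so it does not bear on smaller differences. Alternatives were DESeq2 1.42.0 size factors and Wald test, library totals, no filter, a replicate block, fits of 2 groups, leaving out each library, and a summed feature of Cxcl1, Cxcl2, Cxcl3 and Cxcl6. The ratios of summed counts carry 95% exact intervals for counting error. They were computed where the controls held at most 20 counts in all, and only some of them are printed.

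All 10 ligands are named in every comparison. Of the other lists only some of the called genes are named, and the rest enter the counts alone. The ligands and lists were chosen with earlier results of these data known, and 1 gene of the list of promoter and mRNA decay factors is not reported here and was left out of its counts. Upstream bases were matched by symbol for 9 of 10 ligands. Values of the study's own tests were not used.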

Additional observations from a re-analysis of the deposited data

Results flagged for a closer look

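The responses of 7 ligands to Aβ42 and of 6 to Aβ40 were singled out because the change in astrocytes differed from that in microglia in a test of the difference itself (edgeR interaction term). With Aβ42 the log2 difference, astrocytes minus microglia, was 2.29 ± 0.44 for Cxcl2, 6.03 ± 1.01 for Cxcl9, 2.76 ± 0.43 for Cxcl10 and 6.43 ± 0.97 for Cxcl13 (SE). It was 3.75 ± 0.21 for Cxcl16, -1.96 ± 0.29 for Cxcl12 and -1.06 ± 0.3 for Cxcl14. With Aβ40 it was 1.87 ± 0.45 for Cxcl2, 4.61 ± 0.98 for Cxcl9, 2.46 ± 0.43 for Cxcl10 and 7.0 ± 1.0 for Cxcl13. The last of these were 3.15 ± 0.21 for Cxcl16 and -1.78 ± 0.3 for Cxcl12. The Cxcl2 differences were not called when its paralogs were summed with it.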

How the results depend on the processing

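Over all alternatives, 1139 of the member values kept their direction and their side of the threshold. A further 18 passed it where the reported value had not, 14 lost it and 25 changed sign. Of those 25, 24 had not been called. For Cxcl1, Cxcl2 and Cxcl3 these counts include the summed feature set against each ligand's own value. That feature is not a value of any single ligand. Between the fibrils in astrocytes the count of ligands called was 1 with the DESeq2 Wald test and 2 in the fit of 2 groups, and 0 in each of the 6 fits without 1 library. In microglia that count was 0 in the fit of 2 groups and 0 to 5 when a library was left out. The numbers of genes called there were 10 and 2198, and became 141 and 2323 with DESeq2, 265 and 106 in the fits of 2 groups, and 0 to 4 and 99 to 6004 when a library was left out. Same-numbered libraries deviated together in few cases. Their r ran from -0.53 to 0.36 in astrocytes and -0.19 to 0.22 in microglia, over 0.1 in 2 and 1 of 9 pairs. These r values come from deviations within groups of 3 libraries, so they cannot exclude a pairing by number. The main fits used no pairing. With the replicate block 0 ligands were called between the fibrils in microglia (Cxcl14 at 1.01, adjusted p = 0.0524), 752 genes were called there and 0 in astrocytes, and Cxcl10 between the controls was -0.16.

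Sign changes of values that had not been called were these. The summed feature of the paralogs was set against each ligand's own value. Its microglial fibril difference was -0.013, where Cxcl2 and Cxcl3 themselves were at 0.18 and 0.12. Its difference of the responses was 0.016 with Aβ42, where Cxcl1 itself was at -0.32. With Aβ40 it was -0.30, where Cxcl3 itself was at 0.42 and the called Cxcl2 at 1.87. Cxcl10 between the controls was -0.0052 without a filter, and Cxcl11 in the Aβ42 difference of responses was -0.026 with DESeq2. Leaving out 1 library gave -0.070 to 0.22 for Cxcl13 between the fibrils in astrocytes, -0.36 to 0.17 for Cxcl10 between them in microglia, and -0.48 to 0.37 for Cxcl10 between the controls. In the difference of the responses it gave -0.58 to 0.87 for Cxcl11 with Aβ42, -0.76 to 0.71 for Cxcl11 with Aβ40 and -0.066 to 1.11 for Cxcl3 with Aβ40. The causes were not tested. Depth limits the controls with few counts: Cxcl2, Cxcl3, Cxcl9 and Cxcl13 in astrocytes and Cxcl9, Cxcl11, Cxcl12 and Cxcl13 in microglia held 2 to 19 counts over 3 libraries, so their fitted folds are loosely bounded. The control cultures had no particle of another kind, the mRNA level is not the secreted protein, and 1 time point was sampled.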

Other observations

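The genes whose pattern over the 6 groups lay nearest to each ligand were found by the Euclidean distance between profiles of mean log2 scaled CPM, each centred on its own mean, among 11580 other genes. Nothing is said here of shared function or control, and the distances are descriptions without a test.

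For Cxcl1 they were Slpi, the secretory leukocyte protease inhibitor, at 0.97, and Mmp3, a matrix metalloproteinase, at 1.45, where the median gene lay at 7.66. Cxcl2 lay nearest to Cxcl3, at 1.15, and then to Csf3, the granulocyte colony-stimulating factor, at 1.32 (median 10.5). Cxcl3 lay nearest to Csf2, the granulocyte-macrophage colony-stimulating factor, at 1.12, and then to Cxcl2.

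Among the Cxcr3 ligands, Cxcl9 lay nearest to RT1-Bb, a class II major histocompatibility gene, at 0.74, and to Tmem171 at 0.85 (median 7.02). Cxcl10 lay nearest to Ccl19, a chemokine of lymphoid tissue, at 0.68, and to Mybph at 0.76 (median 5.22). Cxcl11 lay nearest to Elf3, an epithelial transcription factor, at 0.70, and to Plet1 at 0.82 (median 7.34).

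Cxcl12 lay nearest to Serpina3n, a serine protease inhibitor that reactive astrocytes express, at 0.68, and to Pnoc, the nociceptin precursor, at 1.11 (median 7.43). Cxcl13 lay nearest to RT1-Db1, a class II gene, at 1.05, and to Tmem171 at 1.32 (median 6.47). Cxcl14 lay nearest to Rgs6 at 0.66 and Arntl2 at 0.69 (median 7.10), and Cxcl16 to RT1-S3, a class I histocompatibility gene, at 0.65, and to MGC105567 at 0.68 (median 3.07).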
